A study of Mus musculus with 7 samples.

Results

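Pluripotency genes are carried by primordial germ cells and shut down as the cells of the fetal ovary enter meiosis. The 10 genes followed here were Pou5f1, Utf1, Nanog, Sox2, Dppa5a, Dppa3, Dppa4, Lin28a, Tfap2c and Prdm1. They were chosen by name, and each matched 1 of the 31053 gene rows of the deposited matrices. Earlier results of these data were known when they were chosen, so counts of members past a fold are descriptions. Single-cell RNA was measured in gonads of untreated wild-type C57BL/6J mice, pooled into 1 10x Genomics library at each of 7 ages. These were the embryonic days E11.5 and E12.5, then E14.5 and E16.5, then E18.5, and the days P1 and P5 after birth. The E11.5 library is labelled gonad and the others ovary. Dissociation in trypsin lasted 20 min at E11.5 and E12.5, 40 min at E14.5 and E16.5, 60 min at E18.5 and 80 min at P1 and P5. Its length was thus equal within the pairs E11.5 and E12.5, E14.5 and E16.5, and P1 and P5, and cannot be told apart from age in comparisons across these pairs.

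Primordial germ cells express much of the gene set that keeps embryonic stem cells undifferentiated. In a fetal ovary they divide as clusters of sister cells called cysts, then answer retinoic acid, turn on Stra8 and enter meiotic prophase. They arrest late in prophase as oocytes, and growing oocytes stock transcripts that the early embryo will use, among them products of genes first known from pluripotent cells.

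Germ cells were taken as cells with at least 200 genes and at least 3 unique molecular identifiers (UMIs, each a counted transcript molecule) of Dazl and Ddx4 together, both RNA-binding regulators of germ cells. At E11.5 and E12.5, cells with at least 5 UMIs of Dppa5a were taken as well. This gave 40 germ cells in the E11.5 library, 348 in that of E12.5, 2669 at E14.5 and 1016 by E16.5. The E18.5 library held 439, P1 244 and P5 62, which makes 4818 of the 50823 cells kept. Dppa5a alone brought in 31 of the 40 cells at E11.5 and 27 of the 348 at E12.5, and its own level at these ages is therefore set partly by the choice of cells. The comparison cells had no UMI of Dazl or Ddx4 and numbered between 3075 and 8774 per library. At E11.5 and E12.5 they also had fewer than 5 UMIs of Dppa5a. Cells with some UMIs of Dazl or Ddx4 but too few for the rule were in neither group. They numbered from 56 at E11.5 to 1181 at E14.5, and their part in the ratios of germ to comparison cells was not tested.

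Levels are given as CPM, the UMIs of a gene per 1000000 UMIs of all genes, summed over the germ cells of a library, with an exact Poisson 95% interval in parentheses. With 1 library per age no test between ages was possible, and no p-value is given. The intervals cover counting error only, not the spread between cells, animals or libraries. They are thus too narrow where a few cells hold much of a gene's UMIs. At P5, 1 germ cell held 274 of the 1943 UMIs of Dppa5a. A CPM says nothing of transcripts per cell, so less of a gene's RNA and more of all other RNA cannot be told apart. The germ cells of a library held between 813931 and 36424796 UMIs, with a median per cell from 12107 at E18.5 to 60954 at P5.

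Germ cell markers that the choice of cells did not use were checked first. Of 8 (Mael, Stk31, Dnd1, Smc1b, Hormad1, Taf7l, Sycp3 and Figla), 6 were higher in the germ cells than in the comparison cells at E11.5, 7 at E12.5 and E16.5, and all 8 at the other ages. Figla was at 0 in the E11.5 germ cells. All markers of supporting, epithelial, mesenchymal and immune cells were lower in the germ cells at every age. Of 4 endothelial markers Pecam1 was higher in germ cells at 5 of the 7 ages, and of 8 erythroid markers Hbb-y was higher at P5, at 0.291 against 0.139 CPM. Between 9.20 and 38.7% of germ cells held 5 or more UMIs of somatic markers, with the highest share at P5. A Y-linked UMI was found in 37.5% of germ cells at E11.5 and in 6.03% at E12.5, a library labelled ovary, and in at most 2 germ cells of each later library. Pairs of libraries without E16.5 shared between 20 and 131 cell barcodes, and pairs with E16.5 at most 3. The reason was not tested. A technical difference of the E16.5 library cannot be told apart from age in any comparison that uses it. At most 2 of the barcodes shared by a pair were germ cells in both.

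Promoter sequence is shown for 2 genes of the stem cell core picked by their levels after birth, with Pou5f1 detected again in oocytes and Nanog not detectable. A link between sequence and level was not tested. RefSeq gave 2 starts for each of these genes, and only the first listed was used and searched. The 250 bases before that start (GRCm38.p6, plus strand) are shown for both, chr17:35505782-35506031 for Pou5f1 and chr6:122707239-122707488 for Nanog. Capitals mark a GC box (GGGCGG) in Pou5f1, and in Nanog the composite octamer and SOX site, which lies on the minus strand.
Pou5f1: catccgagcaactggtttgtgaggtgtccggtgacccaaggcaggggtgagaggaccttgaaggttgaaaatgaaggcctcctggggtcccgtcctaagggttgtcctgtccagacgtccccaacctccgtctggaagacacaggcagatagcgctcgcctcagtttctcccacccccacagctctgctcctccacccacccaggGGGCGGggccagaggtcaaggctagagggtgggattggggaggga
Nanog: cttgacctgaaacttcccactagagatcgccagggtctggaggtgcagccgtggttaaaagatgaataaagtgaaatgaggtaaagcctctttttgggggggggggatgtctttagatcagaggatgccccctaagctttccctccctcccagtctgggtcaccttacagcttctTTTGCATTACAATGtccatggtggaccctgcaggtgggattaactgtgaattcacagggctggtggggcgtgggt
RefSeq promoters were matched for 6 members (these 2, Utf1, Sox2, Lin28a and Prdm1) and not for Dppa5a, Dppa3, Dppa4 and Tfap2c. On either strand, the GC box was in 33.0% of 32536 promoters of this length and the composite in 2 of them. The composite was added to the search after the Nanog sequence had been seen. The octamer (ATGCAAAT), the SOX site (ACAAAG), the E-box (CACGTG), the NOBOX site (TAATTG) and the E2F site (TTCCCGC) were also searched, none of them overlapping a capital stretch. They were in 1.62, 16.47, 6.04, 7.18 and 3.84% of promoters. Among the 6 members, the SOX site was found in Sox2, GC boxes in Pou5f1, Utf1 and Sox2, and the octamer, E-box, NOBOX and E2F sites in none. A match of letters is a description and not a bound site.

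The core regulators were at their highest level in the youngest germ cells. Pou5f1 (ENSMUSG00000024406, chr17:35506018-35510772 in GENCODE vM21), the gene of the transcription factor OCT4, had a level of 590 CPM (538 to 645) in the E11.5 library, 417 (403 to 432) by E12.5 and 224 (220 to 229) at E14.5. It then stood at 6.88 CPM (5.90 to 7.98) at E16.5, and E18.5 had 4.18 (2.65 to 6.27). P1 had 29.1 (25.0 to 33.7) and P5 had 185 (171 to 200). The gene was thus high in the first 3 libraries, low in the next pair and intermediate after birth. Only the intervals of E16.5 and E18.5 overlapped, though the ratio of E18.5 over E16.5 was 0.607 (0.375 to 0.940). An antisense gene, Gm19553, overlaps its exons, and held at most 1 UMI in the germ cells of any library.

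Nanog (ENSMUSG00000012396, chr6:122707489-122714633), a homeobox gene of the same network, had 77.4 CPM (59.5 to 99.0) in the E11.5 library, 29.9 (26.2 to 34.0) by E12.5 and 7.30 (6.45 to 8.24) at E14.5. After that 1 UMI was counted by E16.5, 2 in the E18.5 library and none at P1 and P5, where the limit of 3 UMIs set for a count of 0 is 0.494 and 0.872 CPM and the exact intervals reach 0.607 and 1.07. Sox2 (ENSMUSG00000074637, chr3:34650405-34652461), the partner of OCT4 on many of its sites, had 221 CPM (190 to 256), 156 (147 to 165) and 89.6 (86.6 to 92.7) at the first 3 ages. From E16.5 to P5 it was at 1.54 (1.10 to 2.11), 0.726, 1.32, and 0.291 CPM, the last 3 resting on 4, 8 and 1 UMIs. Utf1 (ENSMUSG00000047751, chr7:139943789-139945112), a chromatin-bound factor of undifferentiated cells, had 692 CPM (636 to 751), 452 (438 to 468) and 161 (157 to 165), then 1.34 (0.931 to 1.88) at E16.5. Its later levels came from 6 UMIs at E18.5 and 1 each at P1 and P5. Nanog, Sox2 and Utf1 therefore had 8 UMIs or fewer at each age from E18.5 on.

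**Figure D1:**
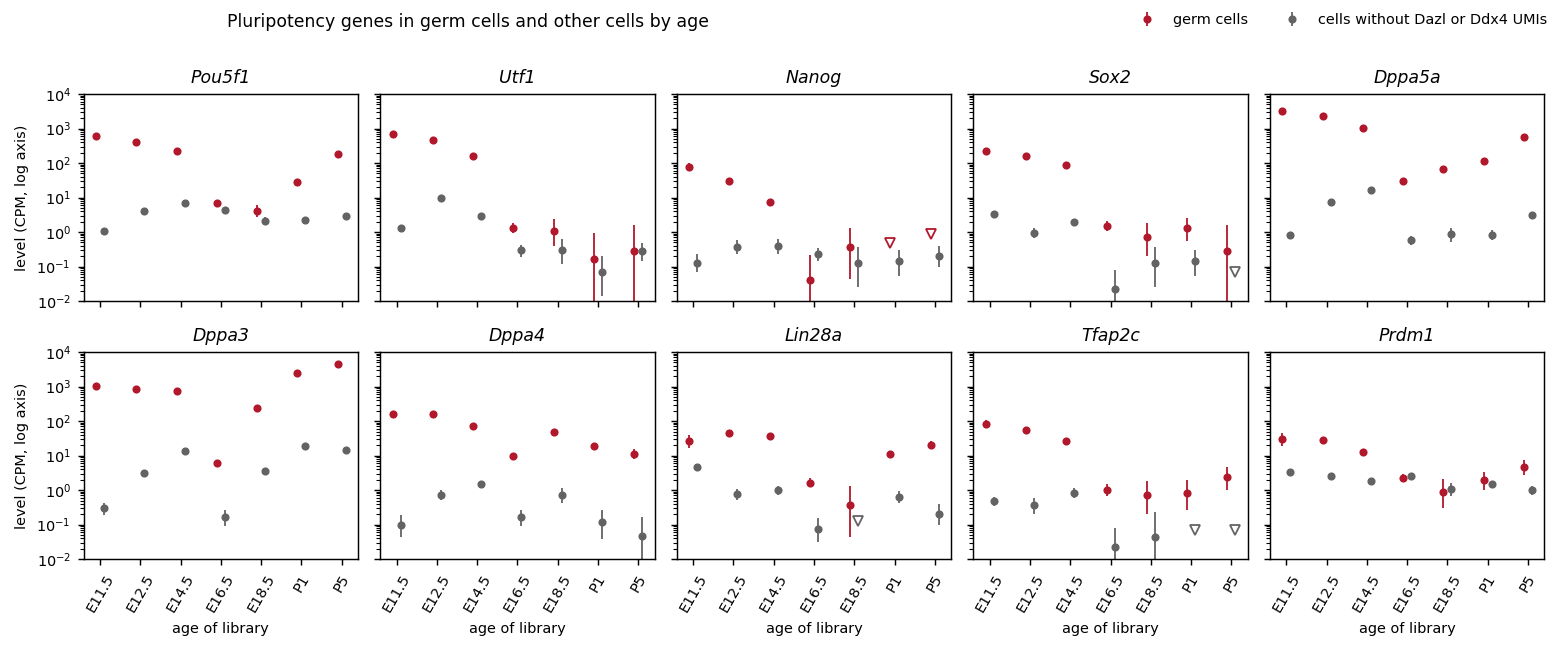
Level of each member in CPM (log axis) by age, in germ cells (red) and in cells with no Dazl or Ddx4 UMI (grey), with exact Poisson 95% intervals that may run off the bottom of the axis; an open triangle marks a count of 0 at the limit of 3 UMIs. Every member is lower at E16.5 than at E12.5, and Pou5f1, Dppa5a, Dppa3 and Lin28a are high again at P5.

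The genes named for developmental pluripotency did not follow one course. Dppa5a (ENSMUSG00000060461, chr9:78367052-78368177, minus strand), an RNA-binding protein of stem and germ cells, had 3311 CPM at E11.5 and 2385 at E12.5, ages at which it chose cells, and 1072 (1061 to 1083) at E14.5. It stood at 31.2 CPM (29.0 to 33.4) at E16.5, and E18.5 had 66.1 (59.5 to 73.2). P1 had 113 (104 to 121) and P5 565 (540 to 590). The lowest library was E16.5, and each later one was higher than the one before. With the 321 cells at E12.5 that had 3 UMIs of Dazl and Ddx4, its level there was 2350 CPM.

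Dppa3 (ENSMUSG00000046323, chr6:122626410-122630272), also known as Stella, is a maternal factor that protects DNA methylation in the zygote. It had 1055 CPM (986 to 1128) in the E11.5 library, 861 (841 to 882) by E12.5, 762 (753 to 771) at E14.5 and then 6.13 (5.20 to 7.17) by E16.5. E18.5 was back at 234 (221 to 247), P1 had 2553 (2513 to 2594) and P5 4426 (4356 to 4497). Its course was a single deep dip at E16.5, with levels after birth above those of the mitotic germ cells. Dppa4 (ENSMUSG00000058550, chr16:48283733-48294237), a chromatin protein of the early embryo, had 158 CPM (132 to 188), 156 (147 to 165), 70.3 (67.6 to 73.1) and 9.89 (8.70 to 11.2) from E11.5 to E16.5. E18.5 had 48.1 (42.5 to 54.3), P1 18.8 (15.5 to 22.5) and P5 11.0 (7.82 to 15.2). Dppa4 thus rose after E16.5 and was lower again after birth, and its interval at P5 overlapped that of E16.5.

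The remaining 3 members act on germ cell fate and on RNA. Lin28a (ENSMUSG00000050966, chr4:134003330-134018841, minus strand), which blocks the maturation of let-7 microRNAs, had 27.0 CPM (16.9 to 40.9), 46.5 (41.8 to 51.6) and 37.9 (36.0 to 40.0) at the first 3 ages. In the 9 cells of E11.5 that Dppa5a did not bring in, it was at 8.90 CPM. That value rests on very few UMIs and is given without an interval, so no difference is read from it. It stood at 1.66 (1.20 to 2.24) by E16.5 and had 2 UMIs in the E18.5 library. P1 had 11.0 (8.54 to 14.0) and P5 20.6 (16.1 to 26.0). Tfap2c (ENSMUSG00000028640, chr2:172549593-172558622), a factor of germ cell specification, had 83.5 CPM (64.9 to 106), 55.2 (50.1 to 60.7), 27.3 (25.6 to 29.0) and 1.03 (0.672 to 1.51) up to E16.5. Its 4, 5 and 8 UMIs at E18.5, P1 and P5 leave overlapping intervals. Prdm1 (ENSMUSG00000038151, chr10:44437177-44528501, minus strand), also called Blimp1 and needed to set aside the germ line, had 29.5 CPM (18.9 to 43.9), 28.8 (25.1 to 32.8), 12.9 (11.8 to 14.1) and 2.21 (1.67 to 2.88). Later it had 5, 12 and 16 UMIs, the last being 4.65 CPM (2.66 to 7.55) at P5. The interval of Lin28a lay above that of E16.5 at both ages after birth, while those of Tfap2c and Prdm1 overlapped their own at E16.5. Overlap does not show equal levels, and the ratio of Prdm1 at P5 over E16.5, given below, excluded no change.

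RNA of the members was also counted outside the germ cells. In the comparison cells Pou5f1 was at 1.09 to 7.08 CPM, and its ratio of germ to comparison cells was 105 (90.7 to 122) by E12.5. It was 1.53 (1.27 to 1.83) for E16.5 and 1.96 (1.14 to 3.28) for E18.5, then 13.3 (10.3 to 17.3) for P1 and 63.0 (52.0 to 76.8) for P5. The low levels of Pou5f1 at E16.5 and E18.5 were thus close to those of the comparison cells, and the source of its UMIs in these was not tested. Prdm1 could not be told from the comparison cells at E16.5, with a ratio of 0.867 (0.636 to 1.16), and Nanog had 0.230 CPM there against 0.0395 in germ cells. Dppa4 kept a ratio of 60.1 (35.7 to 109) at E16.5 and Dppa5a one of 54.7 (41.3 to 73.8), so the low point of these 2 genes stood well above the comparison cells. The remaining members were above the comparison cells at E16.5 as well. Sox2 had a ratio of 70.3 (18.2 to 601) and Tfap2c 46.9 (11.7 to 408), each with 2 UMIs in the comparison cells. Dppa3 had 37.3 (21.9 to 68.2), Lin28a 21.6 (9.63 to 57.1) and Utf1 4.54 (2.66 to 7.83). Dppa3 in the comparison cells was lowest at E16.5 with 0.164 CPM, and highest at P1 with 18.9 CPM.

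Some members were higher in 1 class of other cells than in the rest, with classes drawn from fixed markers. In cells with markers of the supporting lineage, the precursors of granulosa cells, Utf1 was at 29.7 CPM (24.1 to 36.3) at E11.5 and 20.5 (18.6 to 22.7) at E12.5. The mesenchymal class of the same libraries had 0.177 and 1.47 CPM. Prdm1 in cells with endothelial markers ranged from 9.86 CPM at E11.5 to 54.2 at P1, and in immune cells it was at 66.3 at E12.5. At E16.5 the endothelial level of Prdm1 was 53.6 CPM, against 2.21 in germ cells. Lin28a at E11.5 had 4.93 CPM (4.39 to 5.51) in the mesenchymal class and 9.05 (6.01 to 13.1) in the epithelial one. The supporting cells with Utf1 at E11.5 made up 15.6% of 288, or 4.58% when each cell was drawn down to 2000 UMIs.

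Some members were already lower at E12.5 than at E11.5. Nanog kept 38.7% (29.1 to 51.9) of its E11.5 level and Utf1 65.4% (59.8 to 71.6). Sox2 kept 70.5%, Pou5f1 70.8% and Dppa3 81.6%, while Lin28a was higher, at 46.5 against 27.0 CPM. The E11.5 library had 40 germ cells, 31 of them brought in by Dppa5a alone. A Y-linked UMI was in 37.5% of germ cells at E11.5 and in 6.03% at E12.5, and the part of sex in these differences was not tested. The first step of silencing followed here, between E12.5 and E14.5, differed in size between members. Of the 10, 6 fell at least 2-fold in level (Utf1, Nanog, Dppa5a, Dppa4, Tfap2c and Prdm1), against 8.21% of the 13042 genes with 30 or more UMIs over both groups. None rose 2-fold, against 20.7% of those genes. The median difference over the members was -1.08 on the log2 scale, where that of all genes compared was 0.18. Dppa5a chose cells at E12.5, so its fall from there is a description of the chosen cells. Nanog kept 24.4% (20.4 to 29.2) of its E12.5 level and Utf1 35.5% (34.1 to 37.1), apart from each other and from the rest beyond counting error. Prdm1 (44.9%), Dppa5a (44.9%), Dppa4 (45.1%) and Tfap2c (49.5%, or 2.02-fold lower) followed with overlapping intervals, then Pou5f1 with 53.8% (1.86-fold lower) and Sox2 with 57.5%. The interval of Tfap2c (44.1 to 55.5) overlapped those of Pou5f1 and Sox2, and that of Prdm1 (38.2 to 52.9) overlapped that of Pou5f1, so the order among these 6 is not resolved throughout. Lin28a kept 81.6% (72.6 to 91.9) and Dppa3 88.4% (86.1 to 90.8), whose intervals overlapped.

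The second step, from E14.5 to E16.5, took in every member. The E16.5 library stood apart in its shared cell barcodes, as given above, and this cannot be told apart from age. Of the 10, 8 fell at least 10-fold, all but Dppa4 (7.11-fold) and Prdm1 (5.83-fold), against 1.74% of 14708 genes. From E12.5 to E16.5 all 10 fell at least 10-fold, against 2.28% of 13767 genes, with a median log2 fall of 6.09 where all genes compared had a median rise of 0.85. Utf1 was 336-fold lower (240 to 487), Dppa3 141-fold (120 to 166) and Sox2 101-fold (73.5 to 143). Dppa5a was 76.6-fold lower, Pou5f1 60.7-fold, Tfap2c 53.7-fold, Lin28a 28.0-fold, Dppa4 15.8-fold and Prdm1 13.0-fold. Nanog, with 231 UMIs at E12.5 and 1 at E16.5, had a ratio of 757 (134 to 30011). Nanog and Tfap2c passed the minimum of 30 UMIs through E14.5 or E12.5, where they were higher, so the counts of 8 and 10 are descriptions. Dppa5a also chose cells at E12.5. Dppa3, which had lost least by E14.5, was thus lower by a larger factor than Pou5f1 by E16.5.

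**Figure D2:**
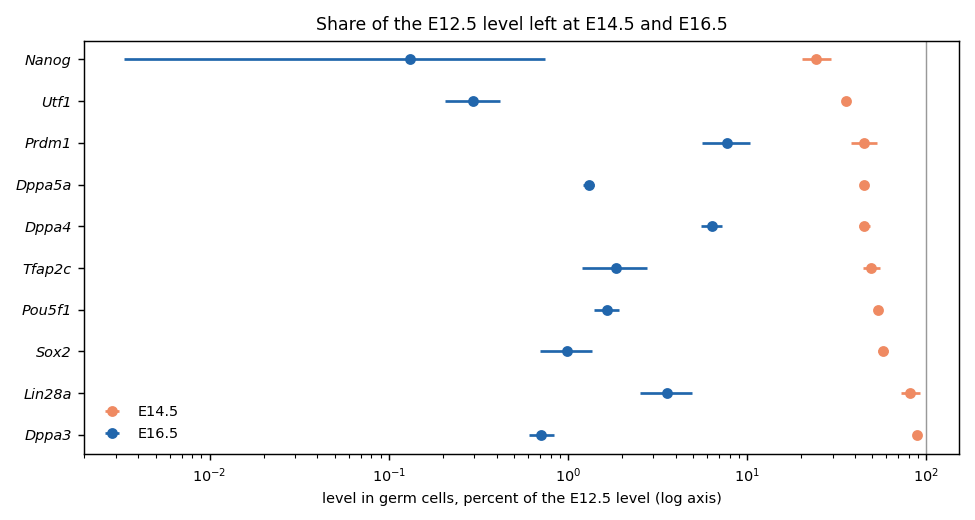
Level in germ cells at E14.5 (orange) and E16.5 (blue) as a percentage of the E12.5 level (log axis), with exact 95% intervals of the ratio, members ordered by the share left at E14.5. Nanog and Utf1 had the smallest shares left at E14.5 and Dppa3 the largest, yet by E16.5 Dppa3 was at 0.712%.

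Germ cells of the E14.5 library ranged widely in meiotic gene levels, so the members could also be ordered within 1 library. Its 2669 germ cells were cut into 5 bins of equal size by the share of their UMIs in 15 meiotic prophase genes, none of them members. A bin is a range of that score and not a cell type. Stra8 went from 363 to 2138 CPM from the lowest to the highest bin, and median UMIs per cell went from 16492 to 9927. All 10 members fell at least 2-fold in level, against 19.6% of 10897 genes. The median fall of the members was 2.75 (log2) where all genes compared had one of 0.00. In the highest bin Nanog had 1 UMI, and Tfap2c and Prdm1 had 14 each. These genes passed the minimum of UMIs through the lowest bin, where they were high, so the count of 10 is a description.

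In each bin above the lowest, Nanog kept the smallest share of its level in the lowest. Its interval overlapped that of Tfap2c in the bin next to the lowest and in the highest. The bins order cells by score and not by time. Nanog was at 18.7 CPM in the lowest bin and 8.15, 2.71, 0.628 and 0.191 in the next 4, so the middle bin held 14.49% of the lowest and the highest 1.02% (1 UMI). In the highest bin Tfap2c kept 5.16% (2.80 to 8.74) of its level in the lowest, Utf1 9.30%, Prdm1 12.2%, Dppa4 13.3%, Pou5f1 16.54% and Dppa3 16.9%. Lin28a kept 20.0% (14.52 to 27.0), Sox2 25.1% (21.0 to 29.7) and Dppa5a 30.9% (29.6 to 32.2). Lin28a was still at 102.5% of its first level in the middle bin, when Utf1 was at 42.2% and Pou5f1 at 57.2%. In the bin below the highest, Sox2 kept 68.9% and Pou5f1 32.8%. Dppa5a went from 1558 CPM through 1240, 990 and 721 to 482. Dazl, part of the rule for germ cells, was higher in the highest bin, at 152% of the lowest. With each cell drawn down to the same 2000 UMIs, the share of cells with Pou5f1 was 49.4% in the lowest bin and 11.8% in the highest.

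**Figure D3:**
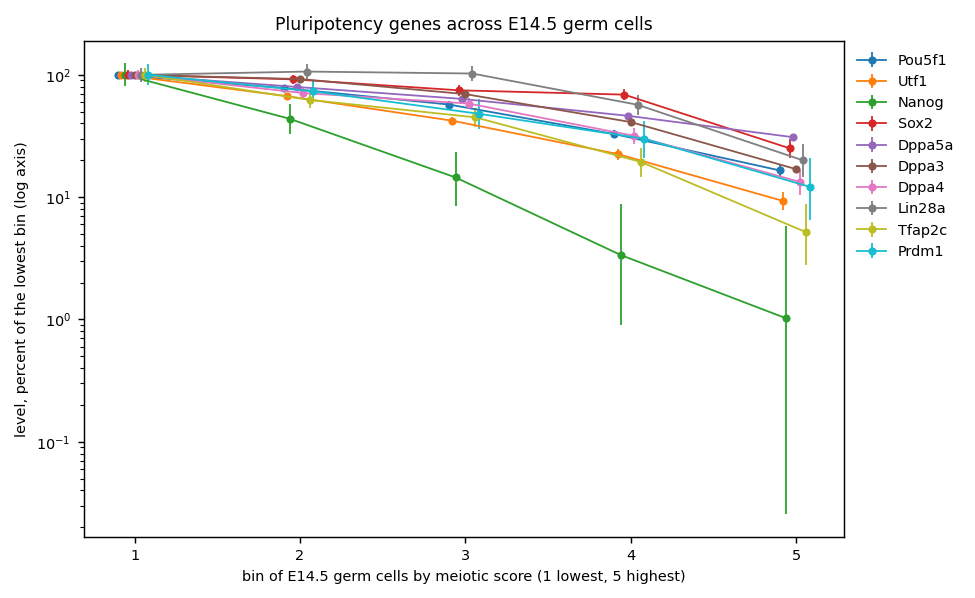
Level of each member in 5 bins of E14.5 germ cells ordered by meiotic score, as a percentage of the lowest bin (log axis), with exact 95% intervals of the ratio. Nanog is lowest in the middle bin and Lin28a holds its level up to it, while in the highest bin the intervals of Nanog and Tfap2c overlap, as do those of Dppa5a and Sox2.

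Single germ cells carried fewer members as a set by E16.5. Drawn down to 2000 UMIs, a germ cell had UMIs of a median of 4 of the 10 members at E11.5 and E12.5, 2 by E14.5, 0 in the E16.5 and E18.5 libraries, and 1 at P1 and 2 at P5. Dppa5a is among the members counted and chose cells at E11.5 and E12.5, so the values of these ages are partly set by the rule. No member was found in 9.57% of such cells by E14.5 and in 86.4% by E16.5. The share was 64.0% in the E18.5 library, 15.9% in that of P1 and 0 of 62 cells for P5. Among comparison cells the share with none was 91.8 to 98.4%, so the E16.5 germ cells came nearest to these. At E14.5, 1972 germ cells had Pou5f1 at full depth, and Nanog was found in 10.4% of them against 0.717% of those without Pou5f1. The part of depth in this pairing was not tested.

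Between E16.5 and E18.5 the members did not share a direction. Pou5f1 was at 60.7% (37.5 to 94.0) of its E16.5 level, a fall of less than 2-fold. Of the members, 3 rose at least 2-fold, Dppa3 by 38.2-fold (32.3 to 45.4), Dppa4 by 4.87-fold (4.08 to 5.81) and Dppa5a by 2.12-fold (1.87 to 2.40), out of 9 with 30 or more UMIs and against 10.4% of 13675 genes. A further 3 fell at least 2-fold, Sox2, Lin28a and Prdm1, against 20.2% of these genes, on 4, 2 and 5 UMIs at E18.5. The fold for Sox2 was 2.12 (0.766 to 8.18) and for Prdm1 2.44 (0.985 to 7.80), so both intervals include no change. These 3 passed the minimum through E16.5, with 39, 42 and 56 UMIs, and nothing is read from their count. Dppa3 was uneven among E18.5 cells, with UMIs in 33.0% of them, and the 10% of cells with most of them held 78.4% of the UMIs. In 3 equal groups of the cells by a score of 12 oocyte genes, such as Figla, Nobox and Zp3, Dppa3 was at 16.2 CPM in the lowest, 30.8 in the middle and 579 in the highest group. The score at E18.5 was mostly Figla, at 749 CPM, with Nobox at 83.7 and Zp3 at 0.908. Median UMIs per cell in these groups were 11260, 12217 and 13279.

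Pou5f1 returned after birth. Its level was 6.98-fold higher (4.50 to 11.3) at P1 than at E18.5 and 44.4-fold higher (29.3 to 70.6) at P5, which brought it to 44.4% (40.7 to 48.4) of the E12.5 level. At P1, 77 of 244 germ cells had a Pou5f1 UMI (31.6%) and at P5 51 of 62 (82.3%), after 23 of 439 (5.24%) at E18.5. With cells drawn down to 2000 UMIs these shares were 0.924% for E18.5, 5.15% for P1 and 17.7% for P5, while comparison cells had 0.533, 0.314 and 0.499%. The most that a single germ cell held was 1 UMI by E18.5, 12 for P1 and 84 for P5. Without germ cells that held 5 or more somatic marker UMIs, the rise from E18.5 to P1 was 5.47-fold.

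Other members were higher again as well, while Nanog, Sox2 and Utf1 stayed at 8 UMIs or fewer. From E18.5 to P1, Pou5f1, Dppa3 (10.9-fold) and Lin28a rose at least 2-fold, 3 of the 5 members with 30 or more UMIs, against 10.1% of 11170 genes. By P5 Dppa5a had joined them at 8.55-fold (7.64 to 9.58), with Dppa3 at 18.9-fold (17.9 to 20.1), against 18.2% of 10983 genes. Lin28a went from 2 UMIs at E18.5 to 67 at P1 and 71 at P5, a ratio of 30.4 (8.08 to 256) and 56.8 (15.2 to 478). Set against E16.5 instead, its ratio at P5 was 12.4 (8.37 to 18.7). Dppa4 fell, by 2.56-fold (2.05 to 3.22) to P1 and 4.36-fold (3.09 to 6.29) to P5, against 15.1 and 21.8% of genes. Utf1, Nanog, Sox2, Tfap2c and Prdm1 had too few UMIs to be counted, and Pou5f1 and Lin28a, with 23 and 2 UMIs at E18.5, passed this minimum through the later library, so the counts are descriptions. Set against E16.5, 6 of 9 members were at least 2-fold higher at P5, where 20.5% of 13750 genes were. These 6 include Tfap2c at 2.26 (0.885 to 5.14) and Prdm1 at 2.10 (1.12 to 3.71).

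At P5 nearly all germ cells had Dppa3 and Dppa5a, those with Pou5f1 among them. Of the 51 cells with Pou5f1, 51 had Dppa3, 50 had Dppa5a and 27 had Lin28a. Nanog was found in 0 of them, Utf1 in 1 and Sox2 in 1. Of the 11 P5 cells without Pou5f1, 11 had Dppa3, 7 had Dppa5a and 1 had Lin28a. At P1 Lin28a was in 40.3% of the 77 cells with Pou5f1 and in 7.19% of those without. Cells with more UMIs find more of every gene, and the part of depth in this pairing was not tested.

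Within the ages after birth, levels went with the oocyte score, and so did depth. Ooep (3117 CPM) and Padi6 (1530) were the highest genes of the score at P5, so its groups rest on other genes than at E18.5. At P5 the 3 groups by oocyte score had Pou5f1 at 52.0 (36.0 to 72.7), 130 (110 to 152) and 285 CPM (259 to 313), with median UMIs of 28816, 61393 and 77973 per cell. Dppa5a went from 152 through 303 to 943 CPM and Dppa3 from 2940 through 4015 to 5370. Lin28a was at 10.7 (4.31 to 22.1), 8.16 (3.92 to 15.0) and 34.6 (26.0 to 45.1). Cut by UMIs per cell instead, Pou5f1 at P5 was at 56.7, 140 and 245 CPM and Dppa5a at 518, 448 and 655. The rise of Dppa5a over the score groups was 6.22-fold (5.07 to 7.71) and over the depth groups 1.26-fold (1.09 to 1.48). For Pou5f1 the corresponding values were 5.47 (3.859 to 8.004) and 4.31 (2.81 to 6.95). At P1 Pou5f1 was at 22.6, 19.6 and 40.1 CPM over the score groups, and over the groups by UMIs per cell at 14.47, 10.2 and 40.1, a rise of 1.78-fold (1.19 to 2.73) against 2.77-fold (1.37 to 6.53). Dppa4 at P1 fell over them, from 35.3 (26.2 to 46.5) to 9.93 (6.488 to 14.55), while over the groups by UMIs per cell it was at 21.7, 32.4 and 11.9. Lin28a at P1 was at 7.76, 11.3 and 12.6 over the score groups with overlapping intervals.

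**Figure D4:**
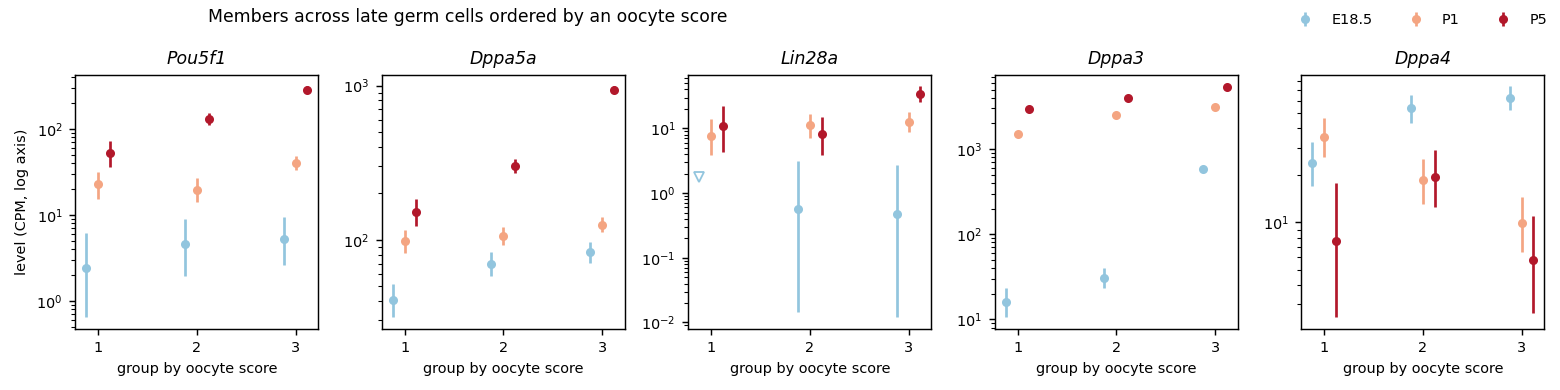
Level (CPM, log axes with a different range in each panel) of 5 members in 3 equal groups of the germ cells of E18.5 (light blue), P1 (orange) and P5 (dark red) by oocyte score, with exact Poisson 95% intervals; the open triangle marks a count of 0 at the limit of 3 UMIs. Pou5f1, Dppa5a and Dppa3 are highest in the highest group at P5, and Dppa4 falls over the groups at P1.

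Other genes of the pluripotency program, from a list of 37 drawn up with earlier results of these data known, gave the setting. From E12.5 to E14.5, 17 of the 31 with enough UMIs fell at least 2-fold in level, against 8.21% of all genes compared. From E12.5 to E16.5 18 of 31 fell at least 10-fold, against 2.28%, with a median log2 fall of 4.85 over the 31. Of the 18, Esrrb, Prdm14, Gdf3, Lefty1, Lefty2, Dppa2, Tcl1, Sox15 and Nanos3 had 27 UMIs or fewer at E16.5. They passed the minimum of UMIs through E12.5, where they were higher. Lefty1 and Lefty2, with 8 and 1 UMIs at E14.5, also did so from E12.5 to E14.5, and these counts are descriptions. Over the bins of E14.5 25 of 28 fell 2-fold, against 19.6%. L1td1, an RNA-binding protein of stem cells, went from 151 CPM at E12.5 to 15.3 at E14.5, or 9.90-fold lower, where Nanog was 4.10-fold lower. Tdh, threonine dehydrogenase of stem cells, went from 148 through 64.5 to 4.51 CPM at E16.5. Ifitm3, a surface protein of early germ cells, went from 555 through 253 to 19.2 CPM, and Ifitm1 from 919 through 731 to 55.8. The comparison cells had 75.5, 98.9 and 90.3 CPM of Ifitm3 and 847, 1137 and 435 of Ifitm1 at these ages, so by E16.5 both were lower in germ cells than outside them. Sall4, a zinc finger partner of OCT4, went from 160 through 86.2 to 3.95.

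Several of these genes were also higher again after birth. From E18.5 to P5, 7 of 16 rose at least 2-fold (Sall4, Nr0b1, Tcl1, Trim71, Sox15, Mybl2 and Dnd1), against 18.2% of all genes compared, and 5 fell, against 21.8%. Sall4, Nr0b1 and Sox15, with 16, 16 and 13 UMIs at E18.5, passed the minimum through P5. Of the 7, Nr0b1 was lower in germ cells than in the comparison cells, at 2.90 against 9.79 CPM at E18.5 and 6.98 against 11.4 at P5. The others were higher in germ cells at both ages. Tcl1, an oocyte factor that promotes AKT signalling, was at 65.1 CPM by E12.5 and 1.07 by E16.5, then 39.4 for E18.5, 183 for P1 and 419 for P5, with its low point in the same library as Dppa3. Trim71, an RNA-binding target of let-7, had 70.2, 20.7, 35.8, 127 and 104 CPM at the same ages, and Sall4 2.90 at E18.5 and 12.8 at P5. Kit, the receptor for the ligand Kitl of supporting cells, had 51.5, 25.4, 91.5, 266 and 177 CPM. Mybl2 and Dnd1 went from 28.3 and 6.72 CPM at E18.5 to 95.6 and 20.3 at P5. Klf2 was at 27.6 CPM at E18.5 and 15.1 at P5, and Tdh at 2.54 and 2.03. Etv5 went from 3 UMIs at E18.5 to 11 at P5, a ratio of 5.87 (1.55 to 32.8), and was not counted for its few UMIs. Klf2 and Etv5 were lower in germ cells than in the comparison cells at both ages. Lin28b, the paralog of Lin28a, was named after its values were seen, and was at 11.8 CPM at E12.5 and 72.0 at E16.5, the age at which Lin28a was at 1.66.

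The members fell into courses that were alike across the 7 libraries. On log2 of CPM with 10 added, Utf1 and Sox2 had a Pearson correlation of 0.998 and Pou5f1 and Dppa5a one of 0.984, whereas Dppa3 had 0.180 with Utf1 and 0.580 with Pou5f1. These are descriptions over 7 points that share library, depth and age. Of 5286 genes with at least 50 CPM in 1 library, members left out, those most like Pou5f1 were Abhd11 (0.991), Thoc6 (0.984) and Rnaseh2a (0.983). Abhd11 was also the most like Dppa5a (0.992), before Arpc1b and Prdx2. Utf1 was matched best by Tdh, Ptpn6 and Gstm3 (all 0.999), and Dppa3 by Cops6 (0.995), Sec61b (0.989) and Pebp1 (0.986). Gstm3 was at 66.3 CPM at E11.5 and 0 at E18.5, P1 and P5. Cops6 had a low point of 75.1 CPM at E16.5 and 253 at P5.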

How the data were processed

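The authors deposited UMI counts per gene and cell for 7 libraries, made with Cell Ranger 3.1.0 at default settings on the 10x mouse reference for mm10 from v2 chemistry, per the file headers, the labels and the study's methods. The counts were whole numbers with no normalization. Cells with at least 200 genes were kept, 50823 in all, and doublets were kept. Library totals ran from 31960736 to 124390521 UMIs.

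Levels were sums of UMIs over cells, as CPM. Intervals were exact Poisson (levels), exact binomial (shares) and conditional exact (ratios). Counts of genes past a fold used those with 30 or more UMIs over both groups. Cells were thinned to 2000 UMIs at random, and shallower ones left out. Scrublet in scanpy 1.11.5 gave doublet scores, and Python 3.11.15, numpy 2.4.6, scipy 1.17.1 and pandas 2.3.3 were used. The fold calls and the intervals of ratios were tested on simulated Poisson counts, the model that the intervals assume. The simulation held no spread between cells and changed no genes with few UMIs, so it does not test these 2 points.

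The members and lists were chosen with earlier results of these data known. Named genes were all members, the 12 companion genes with the highest level in germ cells of any library, and the 3 most alike genes for each of Pou5f1, Utf1, Dppa3 and Dppa5a. Where the rule adds Dppa5a at E11.5 and E12.5, it was read as an alternative to Dazl and Ddx4.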

Additional observations from a re-analysis of the deposited data

How the results depend on the processing

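The 6 comparisons were repeated under 13 other settings of the germ cell rule, the filters, the doublets, the scaling and the scores. All 64 values of these that could be had kept their direction and stayed within 1.5 times the value given, or within its interval for the ratio of Pou5f1. Some of the 64 could not change. The settings of Dppa5a alter cells of E11.5 and E12.5 only, so comparisons among later ages were the same under them by construction. Members that fell 2-fold from E12.5 to E14.5 numbered 5 to 7, and those that fell 10-fold to E16.5 9 or 10. The ratio of Pou5f1 at P1 over E18.5 ranged from 5.47 to 8.31. Of 700 levels of single members, 628 stayed within the interval given, and 320 of 337 ratios. The mean of CPM per cell moved 11 of the other 17, and took Nanog at E14.5 to 17.3% of E12.5. Levels and ratios whose cells a setting left unchanged could not move, and are counted among those that stayed. An example is E11.5, with 40 germ cells also at the higher cuts of Dazl and Ddx4. Leaving out germ cells with a Y-linked UMI and setting P1 and P5 against E16.5 were chosen after seeing the data. With Dppa5a left out of the rule, E11.5 had 9 cells, with Pou5f1 at 574 and Lin28a at 8.90 CPM, the latter on very few UMIs. No paired analysis was possible because each age is 1 library. No library could be left out of a comparison for the same reason. Depth limits Nanog, Utf1, Sox2, Tfap2c and Prdm1 from E18.5 on, and the 40 and 62 cells limit E11.5 and P5.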
